A study of Mus musculus with 2 samples.

Results

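Messenger RNAs of 50 genes for DNA replication and mitosis were compared in RNA-seq of primary mouse hepatocytes, with 1 library of control mice given oil and 1 library of mice given carbon tetrachloride (CCl4). The genes were taken from a given list, 30 of which act in G2 phase and mitosis and 20 at the G1/S transition and in DNA synthesis. Their RefSeq transcripts were looked up in the mRNA table, and of several transcripts of a gene that with the highest mean level was used. Levels are RPKM values, which are reads scaled to transcript length and library size. All 50 were listed among the 20317 mRNA genes of the table, and 48 had a value that could be compared, as had 12012 genes in all. The mitosis genes stood together at the higher end. Their median log2 fold change between the CCl4 and the oil library was 2.21, whereas that of the replication genes was 1.27 and that of all genes with a value was 0.37.

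In a dividing cell, D-type and E-type cyclins drive the passage from G1 into S phase, where the transcription factor E2F1 induces the helicase, nucleotide and fork genes that copy DNA. Later, in G2 and mitosis, Cdk1 with cyclin B, the Polo and Aurora kinases, kinesins and kinetochore proteins condense, align and separate the chromosomes, and the anaphase-promoting complex ends the process by marking cyclin B for destruction. The late genes are known to be switched by the MuvB complexes with B-Myb and FoxM1. Most hepatocytes of an adult liver rest outside the cycle and can re-enter it after injury. Many of them are polyploid, since hepatocytes can copy their DNA without completing mitosis or cytokinesis.

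The mice were WT males of the strain C57BL/6J, aged 5 weeks at the start. The study made the libraries to find transcripts that differ in hepatocytes of the fibrotic liver. The CCl4 mice received a 20% solution of CCl4 in mineral oil into the peritoneum, with 2.5 ml of CCl4 for each kilogram of body weight, 2 times a week. The labels give 8 weeks of injections and the methods of the study give 4, and how many mice entered each library is not stated. The hepatocytes were isolated by perfusion with pronase and collagenase and a density gradient. With 1 library for each condition, no difference described here has a replicate check, so no test was run and no p-value is given. A gene was called higher or lower when its log2 fold change, computed with 0.1 RPKM added to both values, was at least 1 in size.

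The depth recovered from the RPKM steps was 57992590 reads for oil and 64655527 reads for CCl4. All RPKM values under 1 were listed as 0, and where only the oil value was so listed it was restored from the CCl4 value and the deposited log2 change. Of the members, 16 had such a restored oil value, named as restored wherever it is first given. The CCl4 level of the gene in the middle of the distribution exceeded its oil level by 0.37 (log2), so that the libraries were also compared after scaling to that gene. Without this scaling 19.3% of all genes were called higher and 5.68% lower, and with it 10.7% were called higher and 10.8% lower.

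The hepatocyte label was checked against 10 markers, which were all above 1 RPKM in both libraries. All 10 were lower in the CCl4 library, 6 of them past the call. Their summed level was 18107 RPKM with oil and 10361 RPKM with CCl4, and albumin (Alb) stood at 8656 and 6476 RPKM. Markers of other liver cells were present as well. The 10 markers of stellate cells and myofibroblasts, the collagen-producing cells of the liver, were all called higher, with a summed level of 79.5 RPKM with oil and 906 RPKM with CCl4. The only one of them under 1 RPKM was Pdgfrb in the oil library. Of 8 Kupffer cell and macrophage markers 5 were called higher (1009 and 1981 RPKM summed), and of 8 sinusoidal endothelial markers 1 was (512 and 854 RPKM). Of 7 lymphocyte markers 4 had a value, and the B cell markers Cd79a and Ms4a1 were called higher, whereas Cd3e and Cd8a were listed at 0 in both libraries and Cd3d, restored in the CCl4 library, stood at 1.06 and 0.698 RPKM. Nkg7, a gene of NK and cytotoxic T cells and the most abundant of the list with oil, stood at 5.09 and 3.18 RPKM, and the lymphocyte markers summed to 8.18 and 11.4 RPKM. Of 6 cholangiocyte markers 2 were called higher (50.9 and 170 RPKM summed), with Sox9 and Cftr listed at 0 in both. Spp1 made up most of this sum, at 37.4 and 145 RPKM, and after scaling to the median gene 1 cholangiocyte marker was called higher. The erythroid markers were lower as a sum, most of it globins (2302 and 1534 RPKM), with 4 of 7 called lower and Epor, at 0.981 (restored) and 3.53 RPKM, called higher. Lower as a sum were also those of neutrophils and their precursors (302 and 170 RPKM). Beside these counts stand the 19.3% and 5.68% of all genes called higher and lower. After scaling to the median gene 9 hepatocyte markers were called lower and 10 stellate cell and myofibroblast markers higher, but only 1 Kupffer cell and macrophage marker and none of the endothelial markers. These lists moved between the same 2 libraries as the cell cycle genes, and their part in the results below was not tested. In bulk RNA, more or fewer cells of a type and more or less RNA in each cell cannot be told apart.

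The promoters of the members were examined first, since the 2 sets of genes are known to be switched through different DNA elements. Late cell cycle promoters carry the cell cycle genes homology region (CHR) together with CCAAT boxes, whereas G1/S promoters carry E2F sites. RefSeq windows of 300 bases (GRCm38.p6), from 250 bases before a start site to 50 from it, were found for 26 of 30 mitosis genes (27 windows) and 16 of 20 replication genes (18 windows). Ccna2, Aurkb, Kif20a and Tpx2 and, of the replication genes, Mcm4, Ccne2, Ccnd1 and Gins2 had no window in the table. Both strands were searched for CHR (TTTGAA or TTCGAA), for CCAAT and for the core of an E2F site. This core was spelled TTCCCGC in its usual form, and the spelling TTCGCGC was also taken, besides the variant TTGCCGC and the further variant TTGGCGC.

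The 2 sets of windows differed most in CHR and E2F letters. CHR letters were found in 22 of 27 windows of the mitosis genes (81.5%) and in 3 of 18 of the replication genes (16.7%), beside 19.2% of all 32817 RefSeq windows. In the last 100 bases of the window, a stretch chosen after the matches were seen, CHR letters stood in 20 of the 27 (74.1%), 1 of the 18 (5.56%) and 5.31% of all windows. E2F letters had the reverse order, with 3 of 27 mitosis windows (11.1%) and 11 of 18 replication windows (61.1%), beside 9.57% of all windows. Among the 21230 windows of protein-coding genes, the shares were 12.1% for E2F letters and 17.6% for CHR letters. The mitosis share of E2F letters thus lay slightly above that of all windows and slightly below that of protein-coding genes. CCAAT was frequent in both sets, in 22 of 27 (81.5%) and 13 of 18 (72.2%) against 37.4% of all windows. CHR and CCAAT stood together in 20 mitosis windows (74.1%), 3 replication windows (16.7%) and 7.51% of all windows. A match of these letters is a description of the sequence and not a bound site, no factor binding was measured here, and no test of these shares was run. E2F and CCAAT letters can overlap, as they do in the window of Ccnb1.

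**Figure D1:**
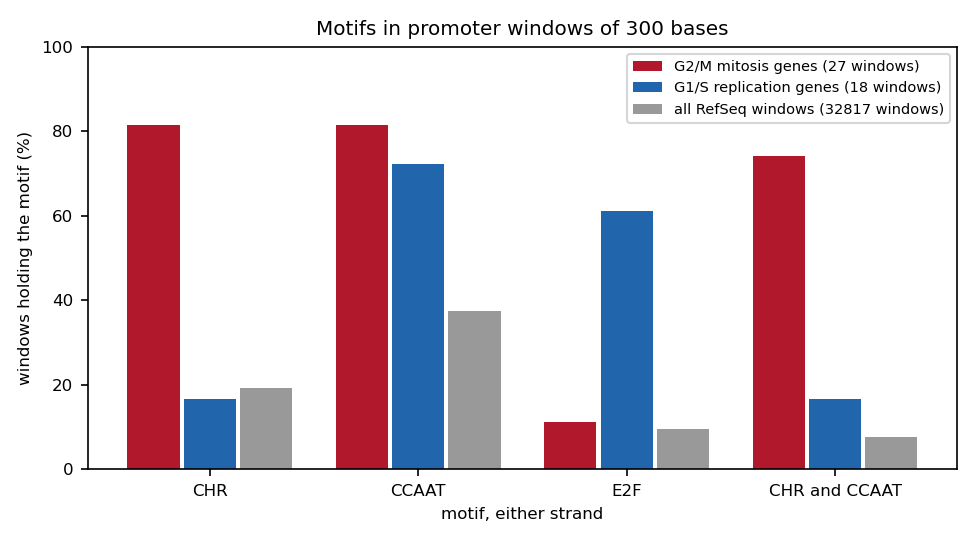
The bars give the percent of RefSeq promoter windows that hold each motif on either strand, for the 27 windows of the mitosis genes, the 18 of the replication genes and all 32817 windows. CHR letters stand in 81.5% of the mitosis windows and 16.7% of the replication windows, and E2F letters in 11.1% and 61.1%.

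The windows of Ccnb2, Cdc20, Mcm6 and Mcm5 are shown because they carry these patterns in full and belong to genes on which the comparison turns. Capitals mark CHR, CCAAT and E2F letters on either strand, and position 0 is the start site from which the window was taken. It is the first base of the annotated gene for Ccnb2, Cdc20 and Mcm6, whereas for Mcm5 it lies inside the gene, whose first base is annotated at 75109468. Ccnb2 (chr9:70421505-70421804, minus strand) has CCAAT starting at positions -87, -54 and -21 and CHR letters at positions 4 to 9, with further CHR letters at -167. Cdc20 (chr4:118437294-118437593, minus strand) has CCAAT at -53 and -8 with CHR letters at -18. Mcm6 (chr1:128359656-128359955, minus strand) has E2F letters that overlap on opposite strands starting at -109 and -106 and again at -46 and -43, a further E2F match at 24, and reverse CCAAT at -57 and -14. Mcm5 (chr8:75109259-75109558, plus strand) has E2F letters starting at -164 and, overlapping on opposite strands, at -152 and -149, and CCAAT at -77, -22 and 6.
Ccnb2: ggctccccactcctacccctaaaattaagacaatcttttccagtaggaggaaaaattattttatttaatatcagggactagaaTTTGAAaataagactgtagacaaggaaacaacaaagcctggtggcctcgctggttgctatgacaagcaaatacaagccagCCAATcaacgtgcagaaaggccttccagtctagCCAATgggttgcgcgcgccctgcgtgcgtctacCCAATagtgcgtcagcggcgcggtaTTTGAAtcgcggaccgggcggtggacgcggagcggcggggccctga
Cdc20: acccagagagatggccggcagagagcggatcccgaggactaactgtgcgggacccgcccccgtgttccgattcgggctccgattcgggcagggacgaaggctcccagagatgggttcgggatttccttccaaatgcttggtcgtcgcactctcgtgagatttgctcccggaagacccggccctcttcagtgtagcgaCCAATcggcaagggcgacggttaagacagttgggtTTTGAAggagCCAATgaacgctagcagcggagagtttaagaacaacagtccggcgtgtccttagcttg
Mcm6: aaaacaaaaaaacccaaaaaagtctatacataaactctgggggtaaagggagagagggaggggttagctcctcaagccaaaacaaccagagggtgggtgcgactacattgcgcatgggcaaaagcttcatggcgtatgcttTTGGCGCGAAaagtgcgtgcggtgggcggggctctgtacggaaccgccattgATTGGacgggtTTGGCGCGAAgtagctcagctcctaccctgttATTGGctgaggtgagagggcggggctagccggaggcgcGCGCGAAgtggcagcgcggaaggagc
Mcm5: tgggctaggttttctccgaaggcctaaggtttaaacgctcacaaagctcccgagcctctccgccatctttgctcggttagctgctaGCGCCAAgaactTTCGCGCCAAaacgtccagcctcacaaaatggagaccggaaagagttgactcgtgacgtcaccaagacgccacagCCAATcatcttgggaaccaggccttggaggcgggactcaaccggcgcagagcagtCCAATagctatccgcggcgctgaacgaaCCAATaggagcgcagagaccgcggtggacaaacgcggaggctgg

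The windows without a match were also examined. Birc5, Ccnb1, Cenpe, Nuf2 and Nusap1 had no CHR letters in their windows, and Ccnb1 had CCAAT starting at -99 and -67. Their log2 fold changes of 1.93, 2.74, 1.96, 2.35 and 1.81 lay within the range of the other mitosis genes. Among the replication genes, CHR letters stood in the windows of Cdc45, Mcm2 and, in 1 of its 2 windows, Mcm7. The replication genes without E2F letters were Ccne1, Cdc45, E2f1, Mcm2, Pcna, Tk1 and Tyms. This says only that these letters are not in the window.

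Cyclins, Cdk1 and the anaphase-promoting complex stood highest among the mitosis genes. All 7 were called higher in the CCl4 library, beside 19.3% of all genes, with a median log2 fold change of 2.54. Cdc20, which activates the anaphase-promoting complex at the end of metaphase, measured 2.43 RPKM with oil and 19.9 RPKM with CCl4. It had the highest level of the mitosis genes in the CCl4 library and the greatest fold of all members, 8.20-fold (95% counting interval 5.54 to 12.6). Cdca3, which triggers mitotic entry as part of a ubiquitin ligase, was at 1.54 and 11.6 RPKM. Ccnb1, a cyclin B, was at 0.975 (restored) and 7.08 RPKM, and its fold of 7.26 had an interval of 6.05 to 8.77. Ccnb2, the other mitotic cyclin B, was at 1.33 and 8.21 RPKM. The kinase they activate, Cdk1, was at 1.01 and 5.63 RPKM. Ube2c, the ubiquitin-conjugating enzyme of the anaphase-promoting complex, was at 2.06 and 9.90 RPKM. The smallest change of this group was that of Ccna2, cyclin A, which acts in S phase as well as in mitosis and was at 2.40 and 9.28 RPKM, 3.86-fold (3.46 to 4.32). The counting interval of Ccna2 lay below those of both cyclin B genes.

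The mitotic kinases and the chromosomal passenger complex had a median log2 fold change of 2.21, and 7 of 8 genes were called higher, beside 19.3% of all genes. The eighth, the checkpoint kinase Bub1, was listed at 0 in both libraries and has no fold change. Plk1, the Polo kinase of mitotic entry and spindle assembly, was at 0.658 (restored) and 4.18 RPKM. Aurka, the Aurora kinase of the spindle poles, was at 1.29 and 6.29 RPKM, a fold of 4.90 with the wide interval of 3.15 to 7.91. Aurkb, the Aurora kinase of the passenger complex, was at 1.05 and 6.20 RPKM. Its partners in that complex at the centromere were Cdca8 (borealin) at 1.04 and 5.22 RPKM and Birc5 (survivin) at 2.20 and 8.64 RPKM. The interval of Cdca8 overlapped that of Aurkb (4.87 to 7.23), whereas that of Birc5 (3.23 to 4.81) lay below it. The spindle checkpoint, which holds anaphase until all chromosomes are attached, was represented by Bub1b at 1.22 and 5.13 RPKM and by Ttk, the scarcest member, at 0.160 (restored) and 1.04 RPKM. Ttk rested on 27 or more reads with oil and 196 or more with CCl4, so that its fold of 6.51 had an interval of 4.34 to 10.1.

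All 8 genes of the spindle and midzone were called higher, beside 19.3% of all genes, with a median log2 fold change of 2.05. Of these 8 genes 5 reached 1 RPKM with CCl4 only and so entered through the library where they were higher. The 3 listed in the oil library were all called higher, beside 14.1% of the genes so listed. Kif20a and Prc1, which build the midzone where the cell divides, were at 1.25 and 6.83 RPKM and at 1.19 and 5.95 RPKM. Kif23, a midzone motor of cytokinesis, was at 0.75 (restored) and 2.72 RPKM. Kif11, the motor that pushes the spindle poles apart, was at 1.11 and 3.6 RPKM, the smallest fold of this group (3.25, interval 2.86 to 3.70). Kif2c, which depolymerizes microtubules at the centromere, was at 0.378 (restored) and 2.57 RPKM and had the greatest fold of the group, 6.80 (4.66 to 10.2). Tpx2, which activates Aurora A on the spindle, was at 0.582 (restored) and 3.39 RPKM. The chromosome-bound motor Kif4 was at 0.490 (restored) and 2.05 RPKM, and Nusap1, a microtubule bundling protein, was at 0.735 (restored) and 2.82 RPKM.

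The 5 centromere and kinetochore genes, all called higher beside 19.3% of all genes, had a median log2 fold change of 1.96. Of these 5 genes 4 reached 1 RPKM with CCl4 only and so entered through the library where they were higher. The 1 listed in the oil library, Cenpa, was called higher, beside 14.1% of the genes so listed. Cenpa, the histone H3 variant that marks the centromere, was the most abundant at 2.40 and 9.47 RPKM. Nuf2 and Ndc80 belong to 1 complex that grips the microtubule, and their 2 genes gave different folds in these libraries. Nuf2 was at 0.502 (restored) and 2.97 RPKM, 5.92-fold (4.60 to 7.73), whereas Ndc80 was at 0.470 (restored) and 1.52 RPKM, 3.23-fold (2.42 to 4.37), the smallest of the mitosis genes. The large kinetochore proteins Cenpe and Cenpf were at 0.313 and 1.51 RPKM and at 0.278 and 1.69 RPKM, with both oil values restored. The remaining 2 genes concern chromosome structure. Mki67, whose protein Ki-67 coats mitotic chromosomes and is the common marker of cycling cells, was at 2.65 and 9.62 RPKM. Top2a, the topoisomerase that untangles sister chromatids, was at 2.09 and 8.71 RPKM.

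**Figure D2:**
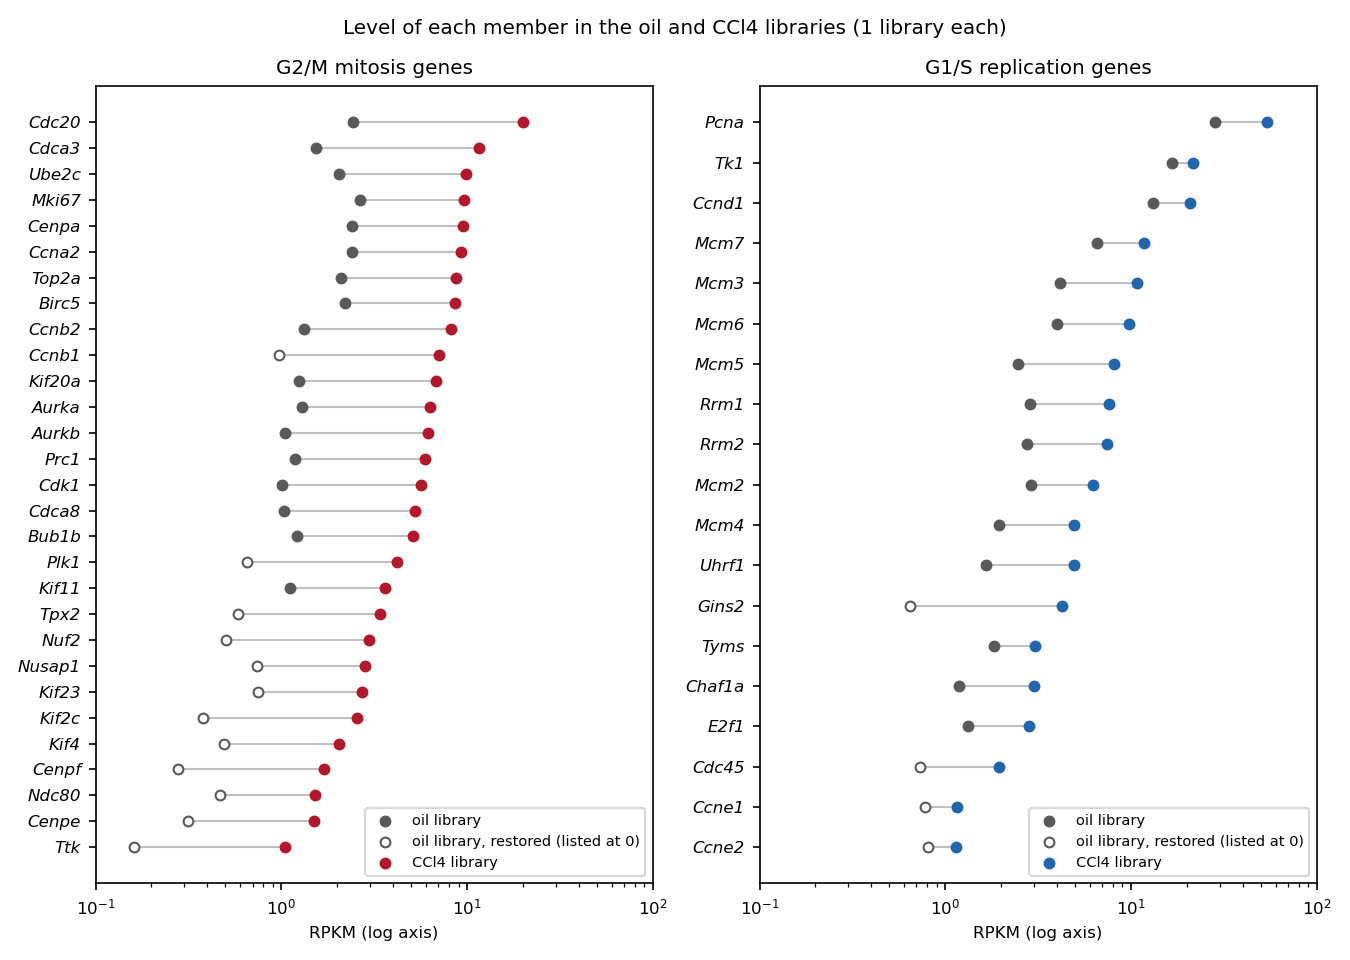
Each row is a member with its RPKM on a log axis in the oil library (grey, open where restored) and in the CCl4 library (coloured), with mitosis genes on the left and replication genes on the right. The mitosis genes lie between 0.160 and 2.65 RPKM in the oil library and between 1.04 and 19.9 RPKM in the CCl4 library, whereas Pcna, Tk1 and Ccnd1 stand above 13 RPKM in both.

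Among the replication genes the helicase group held the largest changes. Of its 9 genes 7 were called higher, beside 19.3% of all genes, with a median log2 fold change of 1.30. After scaling to the median gene 2 were called, Mcm5 and Gins2, beside 10.7%, and the median was 0.94. Cdc6, which loads the helicase onto origins, was listed at 0 in both libraries and has no fold change. Mcm2 to Mcm7 form the 6-part ring that unwinds DNA. They summed to 22 RPKM with oil and 51.6 RPKM with CCl4, but their members differed in fold. Mcm5 was at 2.47 and 8.13 RPKM, 3.28-fold (2.97 to 3.64), the largest of the ring. Mcm3 was at 4.13 and 10.8 RPKM, Mcm4 at 1.95 and 4.94 RPKM and Mcm6 at 4.0 and 9.79 RPKM. Mcm2 was lower in fold, at 2.91 and 6.26 RPKM (2.16-fold, 1.95 to 2.38). Mcm7, the most abundant of the ring, was at 6.55 and 11.7 RPKM, and its 1.79-fold change (1.65 to 1.94) did not reach the call. The interval of Mcm5 lay above those of the other 5 subunits.

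Cdc45 and the GINS complex, of which Gins2 is a part, turn the loaded ring into an active helicase. Cdc45 was at 0.732 (restored) and 1.94 RPKM, a change like that of the ring. Gins2 was at 0.648 (restored) and 4.25 RPKM, 6.55-fold, and it was the only replication gene past 2 on the log2 scale (2.54). Its value rested on 13 or more reads with oil and 95 or more with CCl4, the lowest bounds of all members, and the interval of its fold ran from 3.66 to 12.8. The lower end of that interval was still above the fold of Mcm5.

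At the fork, 2 of 3 genes were called higher, beside 19.3% of all genes, with a median log2 fold change of 1.28, and 1 of 3 after scaling to the median gene, beside 10.7%. Pcna, the sliding clamp of the DNA polymerases, was the most abundant member at 28.3 and 53.7 RPKM, and its 1.90-fold change (1.80 to 2.0) fell short of the call. Uhrf1, which carries DNA methylation to the new strand, was at 1.67 and 4.90 RPKM. Chaf1a, a histone chaperone that packs new DNA, was at 1.18 and 3.02 RPKM.

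The 4 genes of deoxynucleotide synthesis fell into pairs. Rrm1 and Rrm2, the large and small subunits of ribonucleotide reductase, were at 2.87 and 7.65 RPKM and at 2.77 and 7.39 RPKM, and both had a fold of 2.67. The thymidylate enzymes did not reach the call. Tyms, which makes thymidylate anew, was at 1.83 and 3.05 RPKM, 1.66-fold (1.47 to 1.88). Tk1, which salvages thymidine, was at 16.7 and 21.6 RPKM, 1.29-fold (1.20 to 1.39), the smallest change of all members. After scaling to the median gene the log2 fold change of Tk1 was -0.0025, so that its direction depends on the scaling.

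The G1 cyclins and E2F1 had the lowest median log2 fold change of the roles, 0.60. Of these 4 genes 1 was called higher, close to the 19.3% of all genes, and none after scaling to the median gene. E2f1 was at 1.32 and 2.84 RPKM, a log2 fold change of 1.04 and an interval of its fold from 1.80 to 2.55. Ccnd1, the D-type cyclin that links growth signals to the cycle, was at 13.1 and 20.9 RPKM. Ccne1 was at 0.776 (restored) and 1.16 RPKM and Ccne2 at 0.804 (restored) and 1.14 RPKM, folds of 1.5 (1.14 to 1.97) and 1.42 (1.14 to 1.76). Both E-type cyclins thus stood near 1 RPKM in both libraries, resting on 88 and 141 or more reads with oil.

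**Figure D3:**
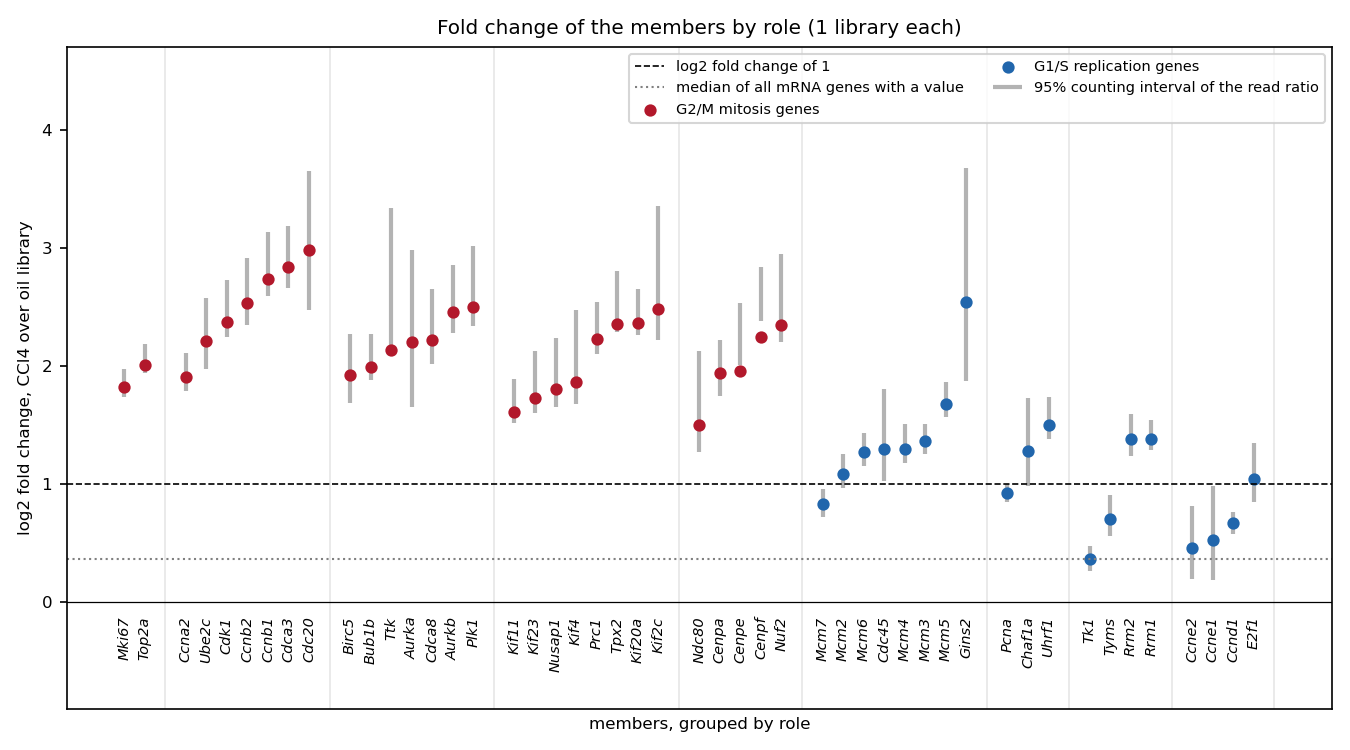
Points give the log2 fold change of each member with 0.1 RPKM added, grouped by role, and grey bars the 95% counting interval of the ratio of recovered reads, without that addition. All 29 mitosis genes with a value lie above the dashed line at 1, and the replication genes run from 0.37 (Tk1) to 2.54 (Gins2) around it.

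Taken over the lists, 29 of the 30 mitosis genes were called higher and 1 had no value, whereas 12 of the 20 replication genes were called higher, 7 lay between the calls and 1 had no value, beside 19.3% of all genes. None of the members was called lower, beside 5.68% of all genes. Past a log2 fold change of 2 there were 18 mitosis genes and 1 replication gene, beside 4.07% of all genes. These counts include genes that reached 1 RPKM in the CCl4 library only, 12 mitosis genes and 4 replication genes, which entered through the library where they were higher. Of the members listed in the oil library, 17 of 17 mitosis genes and 10 of 15 replication genes were called higher, beside 14.1% of the 10848 genes so listed, and the medians of these members were 2.21 and 1.27. Since a fold change can depend on the level of a gene, members from 1 to 3 RPKM in the oil library were also set side by side, a choice made after seeing the data. Here 17 of 17 mitosis genes and 8 of 9 replication genes were called higher, beside 24.6% of 2802 genes.

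The medians of the 2 lists differed by 0.94 on the log2 scale. Medians of the counting interval ends were also compared, with the lower ends for 1 list and the upper ends for the other. Their difference ran from 0.59 to 1.67, but these intervals are of read ratios without the added 0.1 RPKM. Of the 551 pairs made of 1 mitosis and 1 replication gene, the mitosis gene had the larger fold change in 523 (94.9%). Only Gins2 and Mcm5 among the replication genes exceeded the lowest mitosis gene, Ndc80, and the other 17 lay below it. The SD over genes was 0.36 for the mitosis genes and 0.51 for the replication genes, or 0.39 without Gins2. Among all 12012 genes the mitosis genes lay between the percentiles 91.3 and 98.9, and 24 of 29 were in the top 5%. The replication genes lay between the percentiles 50.2 and 97.9, with 1 in the top 5%. These pairs and percentiles include the 12 mitosis and 4 replication genes that entered through the CCl4 library only. They were not computed without those genes.

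In summed level, the mitosis genes were at 34.5 RPKM with oil and 174 RPKM with CCl4, 5.03-fold, whereas the replication genes were at 94.7 and 185 RPKM, 1.96-fold. The ratio of the mitosis sum to the replication sum was thus 0.365 with oil and 0.938 with CCl4. Pcna, Tk1 and Ccnd1 made up 61.3% of the replication sum with oil and 52.0% with CCl4. Without these 3, the replication sums were 36.6 RPKM with oil and 89.0 RPKM with CCl4, 2.43-fold, and the median was 1.29. Against mitosis sums of 34.5 and 174 RPKM, both ratios of sums given above thus depend on these 3 genes. Scaling to the median gene left 29 mitosis genes called, but only 5 replication genes (Mcm5, Rrm1, Rrm2, Gins2 and Uhrf1), beside 10.7% of all genes called higher and 10.8% lower.

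Other cell cycle genes, from lists that share no gene with the members, were counted in the same way. Of 52 other mitosis genes 44 had a value, and 38 of these were called higher, beside 19.3% of all genes, and none lower, with a median log2 fold change of 1.78. Ckap2, a spindle protein, was at 0.451 (restored) and 4.59 RPKM, and Hmmr, a microtubule-binding protein, at 0.348 (restored) and 2.66 RPKM. Foxm1, the forkhead factor of late cell cycle promoters, was at 0.324 (restored) and 1.90 RPKM, a log2 fold change of 2.24, and Mybl2 (B-Myb) was listed at 0 in both libraries. Of these 44 genes 29 had a restored oil value. Of 46 other replication genes 42 had a value, 16 were called higher and 1 lower, and the median was 0.86. Cdt1, the partner of Cdc6 in loading the helicase, was highest at 1.5 and 6.16 RPKM, followed by the histone chaperone Asf1b at 0.960 (restored) and 3.24 RPKM. After scaling to the median gene 37 of the 44 and 5 of the 42 were called higher, beside 10.7% of all genes, so that the replication count was close to that share. Among the genes listed in the oil library, 10 of 15 other mitosis genes (median 1.49) and 8 of 33 other replication genes (median 0.81) were called higher, beside 14.1% of all genes so listed.

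Of 13 G1 entry genes 12 had a value, with a median log2 fold change of 0.72. Of these, 2 were called higher and 1 lower, close to the shares of 19.3% and 5.68% among all genes. Cdk4, the kinase of the D-type cyclins, was at 14.3 and 28.8 RPKM (log2 fold change 1.0), and Cdk2, the partner of the E-type cyclins, at 3.38 and 6.24 RPKM (0.87). Skp2, which targets the inhibitor p27 for destruction, was at 0.651 (restored) and 1.64 RPKM (1.21). The other D-type cyclins, Ccnd2 at 4.20 and 6.21 RPKM and Ccnd3 at 14.4 and 21.7 RPKM, and the growth factor-induced gene Myc at 2.57 and 3.72 RPKM had log2 fold changes of 0.55, 0.59 and 0.51. After scaling to the median gene none of the 12 was called higher, beside 10.7% of all genes.

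A list of 16 genes held inhibitors of the cycle, pocket and MuvB proteins, and the E2F factors E2f4 and E2f5. Of these 16 genes 6 were called higher, beside 19.3% of all genes, and none lower, beside 5.68%. Their median log2 fold change was 0.82, and E2f4 and E2f5 had log2 fold changes of 0.33 and 0.30. Cdkn1c (p57) was at 1.17 and 6.17 RPKM (log2 fold change 2.31) and Cdkn2c (p18) at 2.51 and 9.84 RPKM (1.93). The largest change of the list was that of the scarcer Cdkn2a, which encodes p16 and p19Arf, named here after its values were seen, at 0.162 (restored) and 1.55 RPKM (2.65). Cdkn1b (p27), the inhibitor of Cdk2, was at 8.75 and 17.6 RPKM (1.0), just short of the call, whereas Cdkn1a (p21), the inhibitor induced by p53, was at 11.0 and 9.19 RPKM (-0.26). The pocket proteins, which hold E2F targets silent in resting cells, were Rb1 at 1.34 and 2.81 RPKM (1.02), Rbl1 at 0.893 (restored) and 2.50 RPKM (1.39) and Rbl2 at 4.71 and 6.65 RPKM (0.49). Of the subunits of MuvB, a complex that binds the CHR, Lin9 was at 0.452 (restored) and 1.07 RPKM (1.08). Lin54 was at 1.22 and 2.06 RPKM (0.72), Lin37 at 2.71 and 4.43 RPKM (0.69) and Lin52 at 2.07 and 2.13 RPKM (0.04). After scaling, 4 of the 16 were called higher, beside 10.7% of all genes. Among the genes listed in the oil library, 3 of 12 were called higher (median 0.66), beside 14.1% of all genes so listed.

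**Figure D4:**
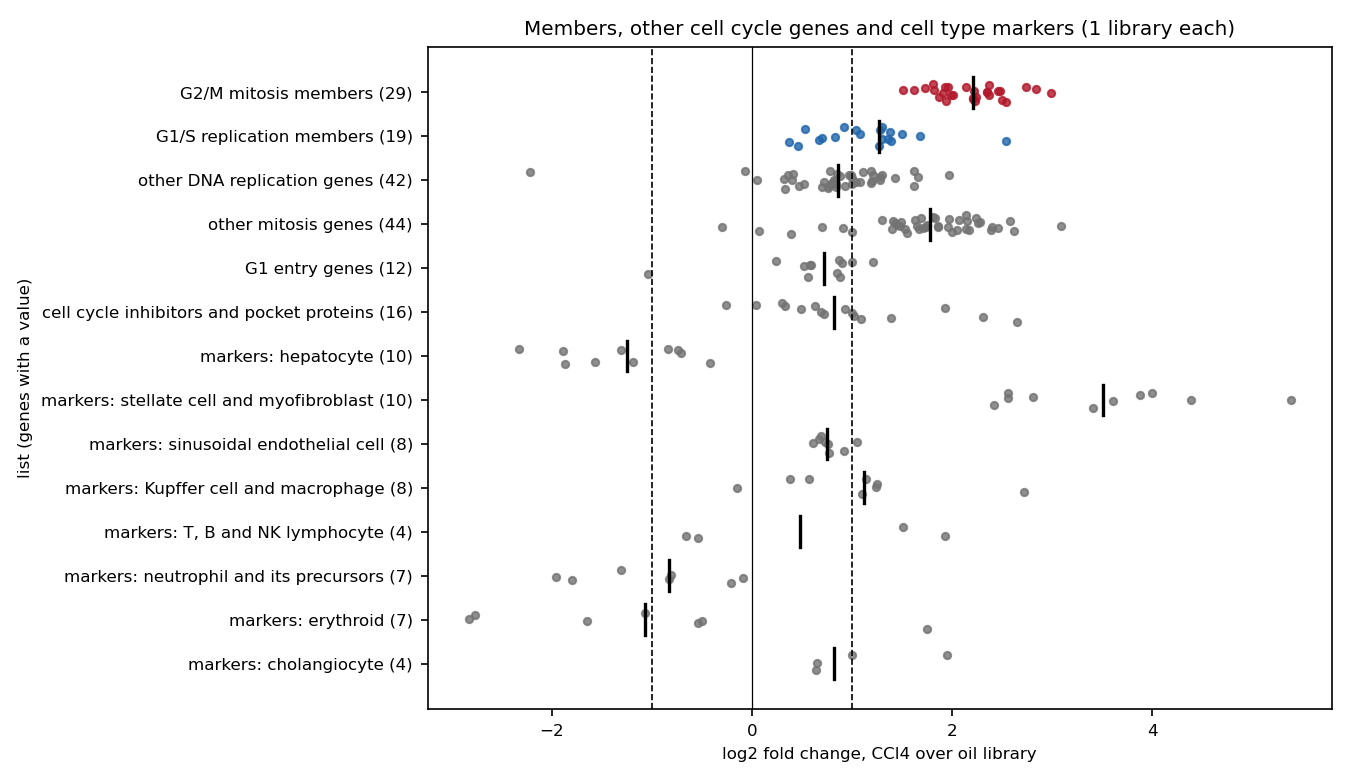
Each point is a gene with a value, placed by its log2 fold change between the CCl4 and the oil library, and the black bar is the list's median, with dashed lines at -1 and 1. The medians are 2.21 for the mitosis members, 1.27 for the replication members, 1.78 for other mitosis genes, 0.86 for other replication genes, 3.51 for stellate cell and myofibroblast markers and -1.25 for hepatocyte markers.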

How the data were processed

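RNA-seq of 2 libraries was analysed, 1 oil and 1 CCl4, grouped by the deposited labels. The authors deposited RPKM values of 27457 mRNA transcripts beside a log2 change and the p-values and q-values of their own test. The log2 change served to restore RPKM values under 1, which the authors listed as 0; the p-values and q-values were not used. The submitters' processing notes name CASAVA 1.4, TopHat2 and mm10; the counting program, annotation and strand setting are not given in the sources used here. The deposited read counts of 1397 new lncRNAs, which carry no normalization, were used to check reads recovered from RPKM steps. These are lower bounds, which matched the known counts in 79.2% and exceeded none.

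Symbols came from a RefSeq gene table (GRCm38.p6), in which 27049 transcripts were found. Fold changes were log2 of the RPKM ratio with 0.1 RPKM added, which understates changes of scarce genes. Depth came from short genes, with whole reads (within 0.02 reads) in 174 of 178 in the oil library and 186 of 191 in the CCl4 library. Intervals are 95% exact Clopper-Pearson intervals on these reads and cover counting error only, as PCR copies of 1 molecule are counted separately. No test fits 1 library for each group. All 50 members were named; of the other cell cycle lists, the 2 largest and 2 smallest changes among genes with a mean level of 1 RPKM or more, and a set of known regulators. A lymphocyte marker is not reported here. The members and lists were chosen with earlier results of these data known. Other pseudocounts, scalings, treatments of listed zeros, filters, transcript choices and calls were tried. Scripts were tested on simulated data. Python 3.11.15, numpy 2.4.6, pandas 2.3.3, scipy 1.17.1 and matplotlib 3.10.9 were used.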

Additional observations from a re-analysis of the deposited data

How the results depend on the processing

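The values compared were the median of each list, the difference of the medians and the count of members called higher, and none of them reversed; among single members, Tk1 had a log2 fold change of -0.0025 after scaling to the median gene. Of 50 such values 40 shifted by less than 0.5 times the width between the counting bounds, or stayed within 1.5 times the count. The difference between the 2 medians ranged from 0.70 to 1.24 on the log2 scale. A pseudocount of 1 RPKM lowered the medians to 1.59 for the mitosis genes and 0.90 for the replication genes, as it shrinks the folds of scarce genes. It called 26 mitosis genes and 8 replication genes. Scaling to the median gene gave 1.84 and 0.90 and called 5 replication genes. Taking listed zeros as 0 gave a mitosis median of 2.54. The same zeros taken as 1 RPKM gave medians of 1.94 for the mitosis genes and 1.08 for the replication genes. This choice called 24 mitosis genes and 11 replication genes. Keeping only genes at 1 RPKM or more in both libraries called 17 mitosis genes, all that were left, and the same count of 17 came from members between 1 and 3 RPKM in the oil library, an alternative added after seeing the data. A call set at 2 on the log2 scale left 18 mitosis genes and 1 replication gene. With 1 library for each condition, leaving out a library was not possible. No paired analysis was possible because each group has 1 library. Some members had few recovered reads, which are lower bounds, and the lowest was 13 for Gins2 with oil. The recovery takes the shortest transcript length that gives whole reads in both libraries, so a low bound need not mean few reads. An interval on such a bound can be wider than that of the true reads. Whether depth or the recovery itself set these low values was not tested.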

Other observations

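A few cell cycle genes stood apart from their lists. Mcm10, which joins the helicase to the polymerase at the start of replication, measured 11.4 RPKM with oil and 2.35 RPKM with CCl4, a log2 fold change of -2.22, and was the only gene of its list called lower; the next lowest, Orc4, an origin-binding subunit, was at 2.42 and 2.30 RPKM. E2f8, a repressor of E2F targets that is known from polyploid hepatocytes, was at 2.46 and 1.14 RPKM (-1.04), while Cdk6 was at 3.43 and 4.08 RPKM (0.24). Of the other mitosis genes, Pttg1 (securin), which restrains separase until anaphase, was at 12.7 and 10.3 RPKM (-0.30), and Ccnf, cyclin F, was at 4.47 and 4.7 RPKM (0.07). Pttg1 and Ccnf were listed well above the levels of the mitosis members in the oil library, of which the highest was 2.65 RPKM.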
